A study of Rattus norvegicus with 12 samples.

Results

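The genes described here are 9 transcripts commonly used to mark adipocytes, the fat cells that in the living animal lie in the adventitia and in the cushion of fat around the aorta. They were taken by symbol from the annotation of the array: Adipoq, Lep, Cfd and Retn, which encode secreted proteins, Plin1 and Cidec, which encode coat proteins of the lipid droplet, Fabp4 and Lpl, which handle fatty acids, and Pparg, which encodes the transcription factor that drives fat cell differentiation. All 9 were found, each with 1 probe set, among 14324 genes tested. The values are expression in whole cultures. A lower value can mean fewer cells of a type or less RNA per cell, which cannot be told apart.

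The cultures were rings cut from the aorta of male Fisher 344 rats aged 1 to 2 months, embedded in a gel of collagen or of fibrin and kept in serum-free EBM medium. Recombinant rat TNF-alpha, an inflammatory cytokine, was added at 10 ng/ml or left out, and RNA was taken at day 2. Each sample combined 4 to 6 ring cultures. Collagen and fibrin, each with and without TNF, gave 4 groups of 3 samples; those without TNF are called controls. The sample titles name the replicates as biological but do not tie them to animals, and a p-value here reflects only how far such samples differ. The sources used here do not say whether the outer fat was trimmed from the rings.

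A white adipocyte stores triglyceride in a lipid droplet coated by perilipin (Plin1) and CIDEC, takes up fatty acids that lipoprotein lipase (Lpl) releases from circulating lipoproteins, carries them with the binding protein FABP4, and secretes adiponectin (Adipoq), leptin (Lep), adipsin (Cfd, complement factor D) and, in rodents, resistin (Retn). PPAR-gamma, with C/EBP proteins, switches on much of this set during differentiation. TNF-alpha is known to lower PPAR-gamma and adiponectin in cultured adipocytes. Fabp4 is also made by endothelium and macrophages, Lpl by macrophages and muscle, and Pparg by macrophages, so at least these 3 genes do not mark fat cells alone. This is not a full list of other sources, and whether the other genes came only from fat cells was not tested.

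Expression values are on a log2 scale, so a difference of 1 is a 2-fold change. The array measures each gene with its own probes, and levels are therefore compared between samples and not between genes, apart from a rough guide to background below. Differences were tested with limma, a linear model fitted to all 14324 genes and all 12 arrays, and a gene is said to have risen or fallen only where its p-value adjusted by Benjamini and Hochberg over all genes was under 0.05. Intervals are 95% intervals from the same model. Genes induced by TNF served as a check of the labels: Nfkbia, an NF-kB target, rose by 0.70 with TNF in collagen (adjusted p = 3.96e-05, limma) and by 0.74 in fibrin (adjusted p = 1.04e-04, limma), and Icam1, an adhesion molecule, rose by 0.82 and 0.53. Both were also higher in fibrin control than in collagen control, Nfkbia by 0.81 (adjusted p = 4.32e-06, limma) and Icam1 by 0.61 (adjusted p = 3.14e-04, limma).

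Most of the 9 genes gave values in the range that the array also returned for genes of unrelated tissues. A list of 21 genes of tissues outside the vessel wall, such as retina, pancreas and testis, served as a guide to the values that the array returns for transcripts not expected in these cultures. The 18 that were measured had mean values from 3.32 to 6.28, with a median of 4.77. Adipoq, Lep, Plin1, Cidec, Pparg and Retn had means within that range, and the means of Fabp4, Cfd and Lpl lay above it. On single arrays Fabp4 went down to 5.32 and Lpl to 6.15, within that range, and Cfd to 6.43, above it. Because probes differ, a mean in that range does not show that a transcript was absent. Ucp1, the uncoupling protein that defines brown fat, lay between 3.39 and 5.09 on the 12 arrays, also within that range. By mean level Adipoq, Plin1 and Cidec, the markers most restricted to fat cells, thus did not stand clear of that range. From lowest to highest array, the genes outside the vessel wall spanned 0.36 to 0.94. Plin1 and Cidec spanned 0.55 and 0.84, and Adipoq spanned 1.85. The 9 genes are called below by their symbols rather than as adipocytes.

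Promoter sequences were taken from RefSeq for assembly GRCr8, as the 250 bases before each start on the coding strand, and are printed for 3 genes that varied together from array to array, Adipoq, Plin1 and Cidec, and for Pparg, the regulator. These 4 were chosen after their values were seen. The table held entries for 7 of the 9 genes, with 2 starts for Pparg; Fabp4 and Lpl had none. Capitals mark TTGCNNAA, a half-palindrome bound by C/EBP proteins, searched on both strands, N being any base.

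Adipoq: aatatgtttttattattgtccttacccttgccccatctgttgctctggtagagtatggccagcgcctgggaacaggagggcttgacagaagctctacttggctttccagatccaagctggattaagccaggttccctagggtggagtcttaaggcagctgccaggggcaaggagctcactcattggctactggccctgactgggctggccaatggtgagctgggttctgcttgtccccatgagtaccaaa
Plin1: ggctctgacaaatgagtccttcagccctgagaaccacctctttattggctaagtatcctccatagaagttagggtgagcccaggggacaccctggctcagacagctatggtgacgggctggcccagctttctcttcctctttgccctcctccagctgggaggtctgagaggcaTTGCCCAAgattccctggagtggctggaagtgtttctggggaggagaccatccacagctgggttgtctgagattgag
Cidec: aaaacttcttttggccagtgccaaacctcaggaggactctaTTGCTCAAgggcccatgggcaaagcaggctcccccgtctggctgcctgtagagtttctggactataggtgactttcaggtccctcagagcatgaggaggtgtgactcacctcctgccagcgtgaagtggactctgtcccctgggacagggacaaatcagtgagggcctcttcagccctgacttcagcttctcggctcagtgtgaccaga
Pparg start 1: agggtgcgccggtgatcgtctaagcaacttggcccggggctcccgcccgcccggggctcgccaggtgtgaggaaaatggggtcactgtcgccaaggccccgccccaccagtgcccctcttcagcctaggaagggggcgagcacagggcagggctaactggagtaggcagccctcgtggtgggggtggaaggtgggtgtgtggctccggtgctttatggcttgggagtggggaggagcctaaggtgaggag
Pparg start 2: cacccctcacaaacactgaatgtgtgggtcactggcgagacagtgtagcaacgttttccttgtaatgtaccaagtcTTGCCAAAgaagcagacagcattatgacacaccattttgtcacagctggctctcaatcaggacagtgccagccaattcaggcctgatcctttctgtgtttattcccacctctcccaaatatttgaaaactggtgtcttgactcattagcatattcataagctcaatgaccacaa

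They lie at chr11:91240170-91240419 (minus strand) for Adipoq, chr1:143086149-143086398 (minus) for Plin1, chr4:148137116-148137365 (minus) for Cidec, and chr4:150096808-150097057 and chr4:150154522-150154771 (plus) for Pparg. TTGCNNAA was found 77 bases upstream of the Plin1 start, 209 of Cidec and 174 of the second Pparg start, and not in the windows of Adipoq, Cfd, Retn or the first Pparg start. It was in 4 of 8 windows of the set, including Lep, and in 9.22% of 33469 windows of the same length. The direct repeat bound by PPAR with RXR, 2 copies of AGGTCA with 1 base between them, was in 0 of the 8 and in 0.0508% of windows. AGGTCA, contained in that repeat, was in the Retn window alone and in 14.1% of windows. An NF-kB motif, GGGNN followed by TTTCC, was in the Retn window and in 1.3% of windows.

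**Figure D1:**
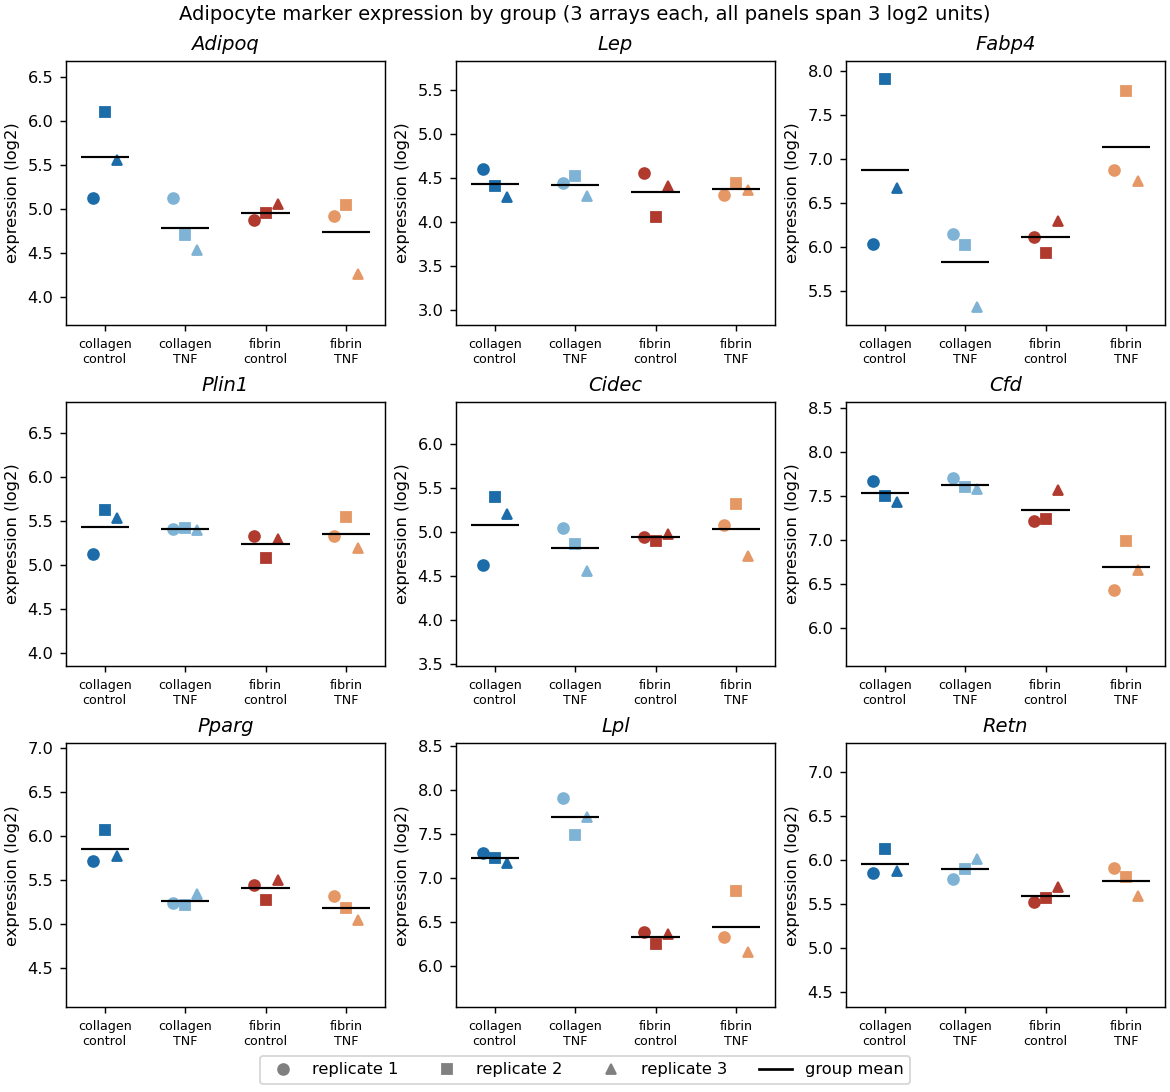
Expression of the 9 genes on each of the 12 arrays, by group; the vertical axis is the log2 value, points are samples and lines are group means. Lpl lies lower in all fibrin samples than in all collagen samples, Cfd is lowest in fibrin TNF, and Adipoq and Fabp4 spread widely within the collagen controls.

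Pparg, Lpl and Cfd each had at least 1 call that held in every alternative setting tried. Pparg was highest in the collagen controls. Its values were 5.72, 6.07 and 5.77 in collagen control, 5.24, 5.22 and 5.34 in collagen TNF, 5.45, 5.28 and 5.501 in fibrin control, and 5.32, 5.18 and 5.05 in fibrin TNF. Each of the 3 collagen controls lay above every other sample. TNF in collagen lowered Pparg by 0.58 ± 0.10 (SE, n = 3 per group; adjusted p = 0.00402, limma). It was 1 of 9 genes called in that comparison, against 6.37% of all genes tested, and the 1 lower call stood against 3.1%. This call held in every alternative setting tried, with adjusted p between 0.00195 and 0.0244 (limma).

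In fibrin the TNF difference of Pparg was -0.22 ± 0.10, with an interval from -0.45 to just below 0 and an adjusted p of 0.324 (limma). The fibrin controls lay below the collagen controls by 0.44 ± 0.10, a 1.36-fold difference (adjusted p = 0.0148, limma). That call was lost without collagen control replicate 2 (difference -0.33, adjusted p = 0.0611) and without fibrin control replicate 2 (difference -0.38, adjusted p = 0.0665). It was also lost without both collagen control replicate 2 and fibrin TNF replicate 2 (adjusted p = 0.0792, limma). With TNF in both gels the difference was -0.08 ± 0.10. The difference of the TNF effect between gels was 0.36 ± 0.15, with an adjusted p of 0.315 (limma).

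Smooth muscle genes moved in the same comparisons as Pparg. Of 7 measured, 3 fell with TNF in collagen and 4 fell in fibrin control against collagen control, with medians of -0.43 and -0.46. Of all genes, 3.1% and 5.19% fell in these comparisons. The counts of smooth muscle genes that fell ran from 2 to 4 and from 3 to 4 with single arrays left out. With TNF in fibrin, and between the gels with TNF, 0 were called in limma and 1 each had an unadjusted p under 0.05, against 15.3% and 22.1% of all genes, with medians of -0.21 and -0.24. The mean of the 7 genes lay between 8.399 and 8.72 in collagen control, 8.06 and 8.29 in collagen TNF, 8.05 and 8.38 in fibrin control, and 7.89 and 8.11 in fibrin TNF. Their part in the Pparg differences was not tested.

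Lpl, the lipase that frees fatty acids from lipoproteins, fell in fibrin whether or not TNF was present. Its values were 7.27, 7.22 and 7.17 in collagen control, 7.90, 7.49 and 7.69 in collagen TNF, 6.38, 6.25 and 6.36 in fibrin control, and 6.33, 6.85 and 6.15 in fibrin TNF. All 6 fibrin samples lay below all 6 collagen samples. Without TNF the fibrin value was lower by 0.89 ± 0.15, or 1.86-fold (adjusted p = 0.00171, limma). With TNF it was lower by 1.25 ± 0.15, or 2.37-fold (adjusted p = 1.70e-04, limma).

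Lpl was 1 of 3 genes of the set called without TNF, against 10.5% of all genes (5.19% lower), and 1 of 2 called with TNF, against 8.19% (3.64% lower). All 5 of these calls were lower in fibrin. Both calls held in every alternative setting tried. TNF in collagen gave a value higher by 0.47 ± 0.15 for Lpl, and the 3 TNF samples lay above the 3 controls, but the adjusted p was 0.0923 (limma). In fibrin the TNF difference was 0.11 ± 0.15.

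Macrophage genes moved in the same comparisons as Lpl. Of 8 macrophage genes on the list, 6 fell in fibrin without TNF and 6 with TNF, with medians of -0.83 and -0.998 against -0.01 and 0.00 over all genes. Of all genes, 5.19% and 3.64% fell in these comparisons. Cd163, a scavenger receptor of macrophages, fell by 2.19 without TNF and fell by 2.70 with TNF, and Mrc1, the mannose receptor, fell by 1.65 and fell by 1.87. C1qa, C1qb, C1qc and Csf1r also fell in both. Without TNF the C1qa call held in 2 of 6 fits with single arrays left out. Cd68, a lysosomal protein, did not pass, at -0.16 ± 0.09 without TNF and -0.05 ± 0.09 with TNF. Adgre1, a macrophage surface receptor, had values in the other direction that did not pass, 0.52 ± 0.19 (adjusted p = 0.105, limma) and 0.50 ± 0.19 (adjusted p = 0.131, limma). The mean of the 8 genes lay between 9.27 and 9.70 on the collagen arrays and between 8.32 and 8.88 on the fibrin arrays. With TNF in fibrin, where Cfd fell (described next), Cd68 rose and C1qc fell, with a median of -0.30 over the 8 genes. With single arrays left out these calls held in 1 and 2 of 6 fits. Of all genes, 3.13% were called with TNF in fibrin. With TNF in collagen 0 were called in limma and 2 had an unadjusted p under 0.05, against 18.6% of all genes, with a median of -0.11. Their part in the differences of Lpl, Cfd, Pparg and Retn was not tested.

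Cfd, the complement protease adipsin, was lowest in fibrin with TNF. It measured 7.67, 7.50 and 7.43 in collagen control, 7.71, 7.60 and 7.59 in collagen TNF, 7.21, 7.24 and 7.58 in fibrin control, and 6.43, 6.99 and 6.66 in fibrin TNF. The 3 fibrin TNF samples lay below all 9 others. TNF in fibrin lowered Cfd by 0.65 ± 0.13, or 1.57-fold (adjusted p = 0.0191, limma), the 1 gene of 9 called there against 3.13% of all genes (1.47% lower).

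That call was lost without fibrin control replicate 3 (difference -0.54, adjusted p = 0.0893), fibrin TNF replicate 1 (difference -0.52, adjusted p = 0.0799) or fibrin TNF replicate 3 (difference -0.63, adjusted p = 0.0725). It was also lost with only the arrays compared (adjusted p = 0.0885, limma). In collagen the TNF difference was 0.10 ± 0.13. Fibrin with TNF lay below collagen with TNF by 0.94 ± 0.13, or 1.92-fold (adjusted p = 6.79e-04, limma), in every alternative setting tried. Without TNF the gels differed by -0.19 ± 0.13 (adjusted p = 0.430, limma).

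The difference of the Cfd TNF effect between gels was -0.75 ± 0.19, with an adjusted p of 0.0849 (limma). None of the 9 genes was called for that difference, against 1.24% of all genes. At an unadjusted p under 0.05 there were 3 of 9, Fabp4, Cfd and Pparg, against 13.1%. Leaving out fibrin TNF replicate 2 brought Cfd past the threshold (difference -0.90, adjusted p = 0.0164, limma).

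Retn, which encodes resistin, was the weakest of the called genes. It lay between 5.85 and 6.13 in collagen control, 5.78 and 6.005 in collagen TNF, 5.52 and 5.69 in fibrin control, and 5.59 and 5.90 in fibrin TNF. The fibrin controls were lower than the collagen controls by 0.35 ± 0.10, or 1.28-fold (adjusted p = 0.0429, limma). The call was lost when any of 5 of the 6 arrays compared was left out, collagen control replicate 2 and 3 and fibrin control replicate 1, 2 and 3, with adjusted p from 0.0516 to 0.167. It was also lost with quantile normalization (difference -0.29, adjusted p = 0.0869, limma), with median centring (difference -0.29, adjusted p = 0.0750, limma), with only the arrays compared (adjusted p = 0.0590, limma), without both collagen control replicate 2 and fibrin TNF replicate 2 (adjusted p = 0.191, limma) and with the replicate number as a block (adjusted p = 0.0527, limma). The genes outside the vessel wall had a median difference of -0.15 in the same comparison. Of these 18, 0 were called in limma and 1 had an unadjusted p under 0.05, against 23.8% of all genes. Their array means lay between 4.85 and 4.98 in collagen control and between 4.71 and 4.84 in fibrin control, and their part in the Retn difference was not tested.

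**Figure D2:**
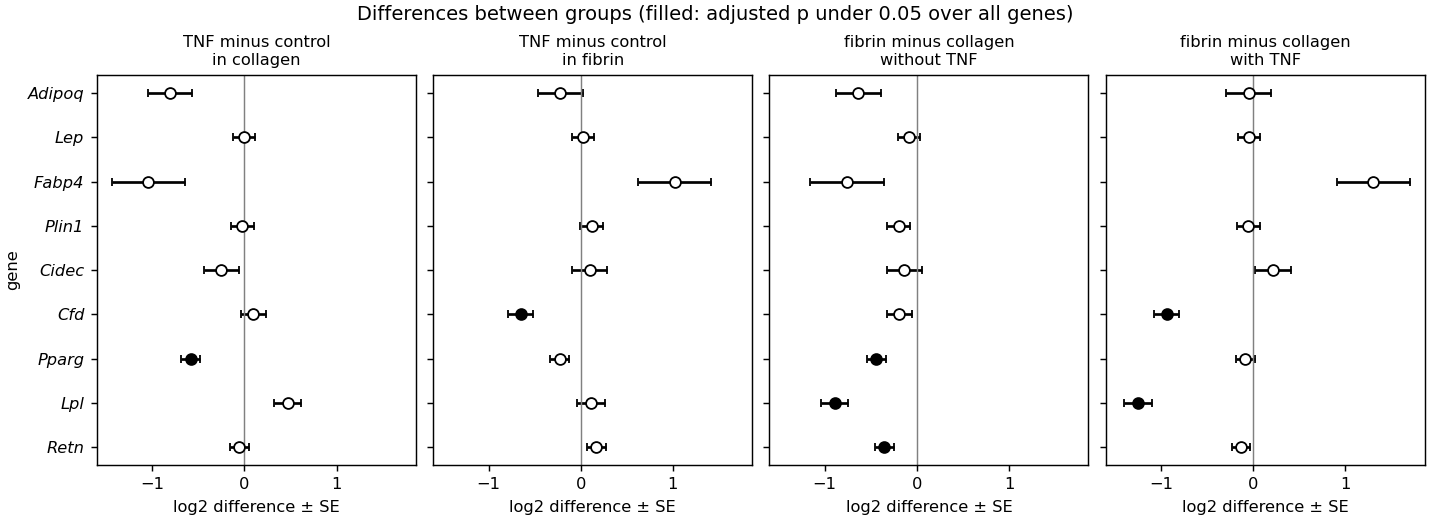
Log2 differences of the 9 genes in the 4 comparisons of groups, as points with bars of 1 SE; filled points passed an adjusted p of 0.05 in limma. Lpl is below 0 in both comparisons of fibrin with collagen, Pparg is below 0 in TNF in collagen, and Fabp4 has the widest bars.

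Fabp4, the fatty acid binding protein, had the widest spread of the 9 genes. It measured 6.04, 7.91 and 6.67 in collagen control, 6.15, 6.02 and 5.32 in collagen TNF, 6.12, 5.93 and 6.30 in fibrin control, and 6.88, 7.78 and 6.75 in fibrin TNF. The TNF difference was -1.04 ± 0.40 in collagen, where the groups overlapped (adjusted p = 0.169, limma), and 1.02 ± 0.40 in fibrin, where all TNF samples lay above all controls (adjusted p = 0.233, limma). The difference between the TNF effects was 2.07 ± 0.56 (adjusted p = 0.117, limma). With TNF, fibrin lay above collagen by 1.31 ± 0.40, without overlap (adjusted p = 0.0671, limma).

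These Fabp4 values depended on single arrays. Without collagen control replicate 2, the TNF difference in collagen was -0.53 (adjusted p = 0.483, limma). Without collagen control replicate 1, the TNF difference in collagen was -1.46 (adjusted p = 0.0423, limma) and the difference of TNF effects was 2.48 (adjusted p = 0.0375, limma). With the replicate number as a block over all arrays, the fibrin against collagen difference with TNF passed at an adjusted p of 0.0435 (limma). It also passed with the filter on dim genes (adjusted p = 0.0431, limma) and with only the arrays compared (adjusted p = 0.0341, limma). Over all settings tried it stayed above 0 and was at least 0.98, with adjusted p from 0.0335 to 0.225 (limma).

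Adipoq, which encodes adiponectin, the most fat-restricted of the secreted proteins, measured 5.13, 6.11 and 5.57 in collagen control, 5.13, 4.70 and 4.54 in collagen TNF, 4.88, 4.96 and 5.06 in fibrin control, and 4.92, 5.06 and 4.26 in fibrin TNF. The lowest collagen control and the highest collagen TNF sample were both at 5.13, and the groups otherwise lay apart. TNF in collagen gave -0.81 ± 0.24 (adjusted p = 0.0730, limma), and fibrin control lay below collagen control by 0.64 ± 0.24 without overlap (adjusted p = 0.124, limma). Without collagen control replicate 1, these were -1.05 (adjusted p = 0.0240, limma) and -0.87 (adjusted p = 0.0388, limma). Without collagen control replicate 2, they were -0.55 (adjusted p = 0.252, limma) and -0.38 (adjusted p = 0.403, limma). In fibrin the TNF difference was -0.22 ± 0.24.

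The other markers, Lep, Plin1 and Cidec, passed in no comparison. Lep, which encodes leptin, lay between 4.06 and 4.60 on all arrays, and its TNF difference in collagen had an interval from -0.27 to 0.25. Plin1 lay between 5.08 and 5.63, with a TNF interval in collagen from -0.29 to 0.25. Cidec lay between 4.55 and 5.39, with a TNF interval in collagen from -0.67 to 0.16. These intervals do not show that the 3 genes were unchanged.

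All 9 differences of fibrin against collagen without TNF were below 0, with a median of -0.35 against -0.01 over all genes. Of the 9, 6 had means within the range of the genes outside the vessel wall, whose median difference here was -0.15. Among those 6, Lep, Plin1 and Cidec had differences of -0.09, -0.19 and -0.14, and Adipoq, Pparg and Retn of -0.64, -0.44 and -0.35. Whether genes of low signal share a shift between the gels was not tested. The fibrin arrays had lower medians over all probe sets as well, 5.89 to 5.93 against 5.94 to 5.98. All 9 were still below 0 after median centring or quantile normalization. Cidec turned to 0.025 without collagen control replicate 2 and Lep to 0.051 without fibrin control replicate 2. TNF in collagen gave a median of -0.05 over the 9 genes, TNF in fibrin 0.10, and fibrin against collagen with TNF -0.05. Each group enters 2 of these 4 comparisons, so their values are not independent of each other.

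At an unadjusted p under 0.05 there were 4 of 9 for TNF in collagen against 18.6% of all genes, 3 for TNF in fibrin against 15.3%, 4 for fibrin against collagen without TNF against 23.8%, and 3 with TNF against 22.1%. The arrays of the groups compared did not overlap for 2, 2, 4 and 3 of the 9 genes in the same order, against 26.5%, 18.1%, 29.3% and 27.6% of all genes. The genes were chosen with earlier results known, so nothing is read from these shares.

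Adipoq, Fabp4, Plin1 and Cidec varied together from array to array within the groups. After subtracting each group's mean, the 6 pairs among these 4 genes had Pearson r between 0.74 and 0.94 over 12 arrays, with a median of 0.85. The 4 genes were set apart after their values had been seen, so this is a description with no test. How common such r is among pairs of all genes was not computed. Genes outside the set reached r of up to 0.96 with Adipoq. For Adipoq and Cidec r was 0.94 (Spearman rho 0.84), and 0.91 without the 2 arrays farthest from the median of Adipoq. The lowest of the 6 was Adipoq with Plin1, at 0.74 (Spearman rho 0.56), and 0.62 without those 2 arrays. Over all 36 pairs of the 9 genes r ran from -0.20 to 0.94, with a median of 0.41. That median was 0.17 without collagen control replicate 2 and fibrin TNF replicate 2, the arrays of highest Adipoq, Fabp4 and Cidec in their groups.

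The largest deviations were in the collagen controls and the fibrin TNF samples. Collagen control replicate 2 was above its group mean by 0.51 in Adipoq, 1.04 in Fabp4, 0.20 in Plin1 and 0.32 in Cidec, and collagen control replicate 1 was below it (-0.48, -0.84, -0.30 and -0.45 in the same order). Fibrin TNF replicate 2 was above by 0.31, 0.65, 0.19 and 0.27, and fibrin TNF replicate 3 was below (-0.48, -0.39, -0.16 and -0.31). Within groups the SD of Fabp4 was 0.60, of Adipoq 0.36 and of Cidec 0.28, higher than 99.9%, 99.5% and 98.1% of genes, whose median was 0.12. That of Plin1 was 0.17, higher than 81% of genes.

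Lep did not share this pattern: its 8 pairs with the other genes had r between -0.20 and 0.41. Cfd pairs lay between -0.13 and 0.64, the highest being with Lpl. Pparg and Retn had r of 0.85. Leaving out the 2 arrays farthest from the median of Adipoq changed Adipoq with Pparg from 0.64 to 0.35.

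**Figure D3:**
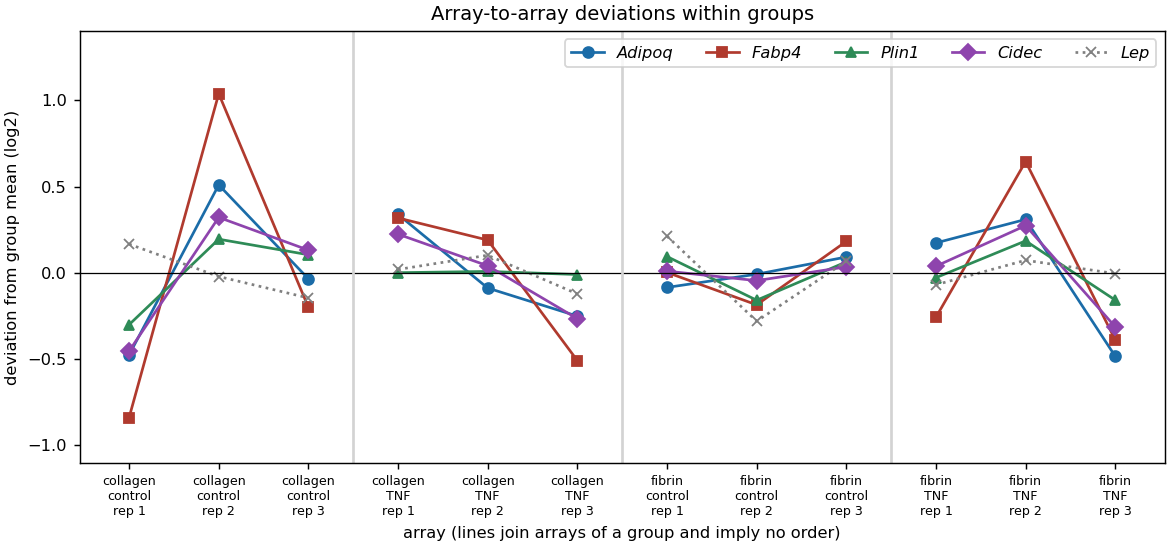
Deviation of Adipoq, Fabp4, Plin1, Cidec and Lep from their group means on each of the 12 arrays, in log2 units. Adipoq, Fabp4, Plin1 and Cidec are above 0 together in collagen control replicate 2 and below it together in collagen control replicate 1.

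**Figure D4:**
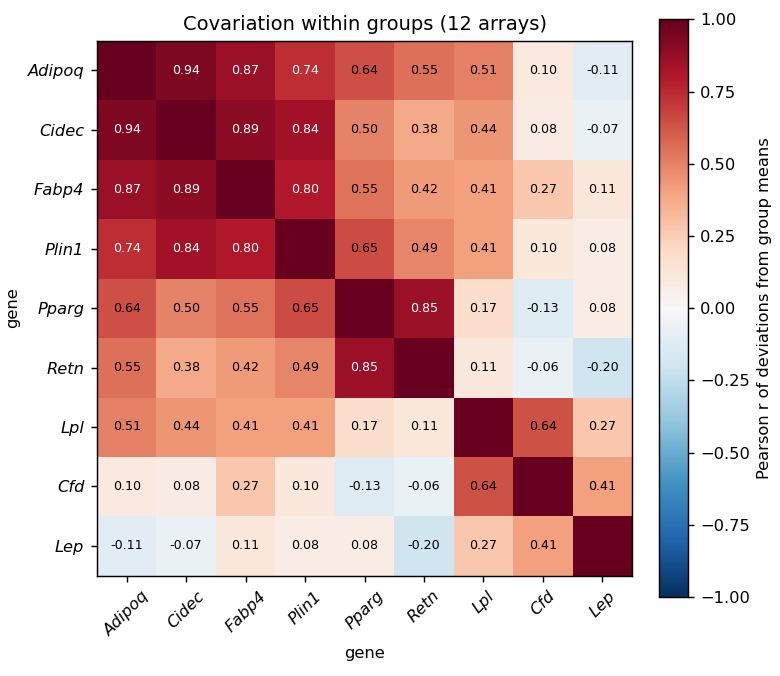
Pearson r of each pair of the 9 genes over 12 arrays after the group means were removed. The 4 genes Adipoq, Fabp4, Plin1 and Cidec form the block of r from 0.74 to 0.94, and the pairs of Lep run from -0.20 to 0.41.

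Among 14315 other genes, those whose deviations followed Adipoq most closely were Tmco3 with r of 0.96, Pip5k1c with 0.93, Cyp4b1 with 0.93, Rnf123 with 0.92 and Mapkapk3 with 0.91, over 12 arrays. For the levels as they are, Pip5k1c had r of 0.93, Gcdh 0.93, Plekhf2 0.92 and Sdha 0.89. No p is given, since these were the highest of many.

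Around the 9 genes, 8 lists of fat cell genes held 71 measured genes. With TNF in collagen 5 rose and 5 fell, and with TNF in fibrin 0 rose and 4 fell. In fibrin against collagen, 9 rose and 7 fell without TNF, and 1 rose and 11 fell with TNF. The shares of all genes called, in either direction, were 6.37%, 3.13%, 10.5% and 8.19% in the same order. The medians over these genes were 0.04, -0.05, -0.03 and -0.06, against 0.00, 0.01, -0.01 and 0.00 over all genes. Single arrays moved these counts. For TNF in collagen, 3 rose without collagen control replicate 2, and 3 fell without collagen TNF replicate 1 or 2. For TNF in fibrin, 0 fell without fibrin control replicate 2 or fibrin TNF replicate 3, 1 without fibrin TNF replicate 1 and 2 without fibrin control replicate 3. Without TNF, 5 rose without collagen control replicate 1 or 2 and 4 without fibrin control replicate 2. With TNF, 7 fell without collagen TNF replicate 1 or 2 or fibrin TNF replicate 1 or 3, and 2 rose without fibrin TNF replicate 2.

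By role, the genes called were spread over the lists. Of 10 regulators of fat cell differentiation, 2 rose and 2 fell in fibrin control, among them Nr1h3, the LXR-alpha receptor, which rose by 0.49 ± 0.06 (adjusted p = 2.24e-04, limma) and held with each array left out. The other 3 did not: Stat5a held in 2 of 6 such fits, Zfp467 in 2 and Rxra in 3, so that 1 to 2 rose and 0 to 2 fell. Of 16 genes of fat synthesis, 3 fell in fibrin with TNF, among them Elovl6, a fatty acid elongase, which fell by 0.67 ± 0.11 (adjusted p = 0.00261, limma). With single arrays left out 1 to 4 fell, and Scd and Lpin1 each held in 2 of 6 fits. Of 5 genes of the insulin and catecholamine response, Irs1, an insulin receptor substrate, fell by 0.52 ± 0.10 in fibrin with TNF (adjusted p = 0.00406, limma). Of 5 adipokine receptors, Cdh13, which binds adiponectin, fell by 0.55 ± 0.11 in fibrin control. Irs1 also fell by 0.50 with TNF in fibrin, and Cdh13 by 0.46 with TNF in collagen (adjusted p = 0.0131 and 0.0209, limma). Each of these 2 calls held in 3 of 6 fits with single arrays left out.

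Mgll, the lipase that releases the last fatty acid of monoglyceride, fell by 0.61 ± 0.11 with TNF in collagen, by 0.81 ± 0.11 in fibrin without TNF and by 0.65 ± 0.11 in fibrin with TNF (adjusted p = 0.00499, 3.76e-04 and 0.00291, limma). Rbp4, the retinol binding protein that fat secretes, fell by 1.07 ± 0.15 with TNF in collagen and by 0.88 ± 0.15 in fibrin control (adjusted p = 9.57e-04 and 0.00237, limma). Cd36, a fatty acid transporter, fell by 0.79 ± 0.13 and by 1.01 ± 0.13 in the same comparisons (adjusted p = 0.00192 and 1.66e-04, limma), on values of 3.48 to 4.98 that lie within the background range. It was the 1 of 9 genes of fatty acid uptake and transport that fell in each. In fibrin control 2 others rose, Angptl4 by 0.67 and Slc27a4 by 0.22 (adjusted p = 0.0111 and 0.0350, limma). With single arrays left out these held in 6 and 0 of 6 fits. Rbp4 also fell by 0.70 with TNF in fibrin, and Cd36 by 0.45 in fibrin against collagen with TNF (adjusted p = 0.0271 and 0.0458, limma). These calls held in 2 and 1 of 6 such fits.

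Plin2, a droplet coat protein found in many cell types, rose by 0.58 ± 0.11 in fibrin control (adjusted p = 0.00343, limma). Lcn2, a secreted lipocalin of inflammation, rose by 1.32 ± 0.20 with TNF in collagen and by 2.88 ± 0.20 in fibrin control (adjusted p = 0.00156 and 1.23e-06, limma). In fibrin against collagen with TNF it also rose, by 1.30 (adjusted p = 0.00146, limma). G0s2, which inhibits fat lipolysis, rose by 0.90 ± 0.15 with TNF in collagen (adjusted p = 0.00295, limma). These calls held in every fit that left out an array. Plin2 also rose by 0.41 with TNF in collagen, and G0s2 fell by 0.57 in fibrin against collagen with TNF (adjusted p = 0.0386 and 0.0370, limma). The last 2 calls held in 1 and 2 of 6 such fits. Of the 7 brown fat genes measured, Kcnk3, a potassium channel, fell by 0.77 ± 0.16 in fibrin against collagen with TNF (adjusted p = 0.00931, limma), a call that held in every such fit. It was the 1 called there, and the median over the 7 was 0.0001. Kcnk3 also fell by 0.75 with TNF in fibrin, and Ppargc1a of the same list rose by 0.80 in fibrin control (adjusted p = 0.0241 and 0.0201, limma). With single arrays left out these 2 calls held in 2 and 3 of 6 fits.

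Genes of the other cell types that a ring could hold were read in the same fits. Of 11 genes of fibroblasts and fat progenitors, 1 rose and 3 fell with TNF in collagen, 0 rose and 2 fell with TNF in fibrin, and 1 rose and 3 fell in fibrin against collagen both without and with TNF. With single arrays left out the genes lower numbered 1 to 2, 1 to 2, 2 to 3 and 1 to 3 in these comparisons. Of all genes, 6.37%, 3.13%, 10.5% and 8.19% were called there, in either direction. Of 5 endothelial genes, Cldn5, a junction protein, was the 1 that fell, by 0.62 ± 0.12 with TNF in collagen, by 0.48 ± 0.12 with TNF in fibrin and by 0.50 ± 0.12 in fibrin control. With single arrays left out the first of these calls held in 6 of 6 fits, the second in 1 and the third in 3. Of 4 Schwann cell genes 0 were called in limma in any comparison. At an unadjusted p under 0.05 there were 2 and 1 for TNF in collagen and fibrin, against 18.6% and 15.3% of all genes. There were 2 and 1 for fibrin against collagen without and with TNF, against 23.8% and 22.1%, and 1 for the difference of TNF effects, against 13.1%. Of 2 mesothelial genes, Msln, mesothelin, rose by 0.95 ± 0.12 with TNF in collagen and fell by 0.66 ± 0.12 in fibrin against collagen with TNF.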

How the data were processed

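RNA from 12 samples was hybridised to an Affymetrix whole-transcript array. The authors deposited log2 values, a scale inferred from their range of 1.44 to 14.07; summarisation and normalization are not given in the sources used here, and the submitters' processing notes name limma. Of 27342 probe sets, 15097 have 1 symbol, and for each of 14324 genes the probe set with the highest mean was used. Groups and replicate numbers come from the sample titles; a tissue label naming collagen in every sample was set aside. Tests used limma 3.58.1 in R 4.3.3 with 1 mean per group. On simulated data, 75% of genes changed by 0.5 and 98% of those changed by 1 were recovered for TNF in collagen. The changed genes were drawn from all genes, with independent noise at each gene's own SD and no pairing. These shares do not carry over to Fabp4, Adipoq and Cidec, whose SDs within groups were 0.60, 0.36 and 0.28 against a median of 0.12. Same-numbered samples of a gel had deviations correlated at 0.13 to 0.25, and same-numbered samples of different gels with the same treatment at 0.03 to 0.23. The main tests ignored this pairing. The number entered only in the settings with a replicate block, over all arrays or within each gel. Named genes were the 9 genes, listed genes and the genes nearest to Adipoq. The members and lists were chosen with earlier results of these data known. Scan dates were not used here. With 3 arrays per group the median standard error of a difference was 0.09. Settings also tried were each array left out, the replicate block, array weights, another prior, the mean of probe sets, only the arrays compared, median centring, quantile normalization and leaving out dim genes.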

Additional observations from a re-analysis of the deposited data

Results flagged for a closer look

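Among the listed genes, 4 had a TNF effect that differed between the gels by limma's test of that difference, with fibrin minus collagen given. They were 3 of the 71 genes of the fat cell lists and 1 of the 11 genes of fibroblasts and fat progenitors, against 1.24% of all genes tested. For Apln, the peptide apelin, it was -0.93 ± 0.14 (adjusted p = 0.00773), from 0.61 in collagen and -0.32 in fibrin, and it held in all 21 alternatives. For Lcn2 it was -1.58 ± 0.29 (adjusted p = 0.0187), from 1.32 and -0.26; it was lost without collagen TNF replicate 1 (adjusted p = 0.0526) or 2 (adjusted p = 0.0555). For Nr1h3, the LXR-alpha receptor, it was -0.46 ± 0.09 (adjusted p = 0.0269), from 0.30 and -0.16, and for Pdgfra, a receptor of fibroblasts and fat progenitors, -0.65 ± 0.14 (adjusted p = 0.0377), from 0.68 and 0.03. Nr1h3 was lost without collagen control replicate 2 or 3, collagen TNF replicate 1, 2 or 3, fibrin control replicate 2 or fibrin TNF replicate 3, with adjusted p from 0.0595 to 0.0733. It was also lost with the replicate block within each gel (adjusted p = 0.0561) and without both arrays of highest Adipoq, Fabp4 and Cidec (adjusted p = 0.102), as was Pdgfra without both (adjusted p = 0.0839). Pdgfra was lost without any 1 of 9 arrays (all collagen samples, fibrin control replicate 2 or 3, or fibrin TNF replicate 1), and with the mean of its probe sets gave -0.32 (adjusted p = 0.127).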

How the results depend on the processing

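Over 727 alternative values for the 9 genes, 668 kept direction and side of the threshold, 17 lost a call, 14 gained one and 28 changed sign. Most of the 727 belong to values not called in the main fit, and several settings leave the estimate itself unchanged, so 668 does not measure how firm the calls were. Calls were lost by Retn without TNF in 10 of 15 settings, by Cfd for TNF in fibrin in 4 of 16 and by Pparg without TNF in 3 of 15. The count of the 9 genes called rose from 1 to 2 for TNF in collagen with only the arrays compared (Lpl, adjusted p = 0.0414, limma) or with array weights (Adipoq, adjusted p = 0.0430, limma), and ran from 1 to 3 with single arrays left out. For TNF in fibrin it was 0 with only the arrays compared and 0 to 1 with arrays left out; without TNF it was 1 without both arrays of highest Adipoq, Fabp4 and Cidec, chosen after seeing the data, and 1 to 4 with arrays left out. The difference of TNF effects went from 0 to 1 gene (Cfd) without the dimmest 33.3% of genes, with a trended robust prior, or without both arrays, and 0 to 1 with arrays left out. The median r was 0.17 without both arrays and 0.26 to 0.49 with arrays left out. Signs turned, all near 0 and none called, in the fit without both arrays for TNF in collagen in Plin1 (0.076) and Retn (0.035), for TNF in fibrin in Lep (-0.0057), Cidec (-0.037) and Lpl (-0.088), without TNF in Cidec (0.025) and for the difference in Plin1 (-0.048), and with array weights in Adipoq with TNF (0.011). Left-out ranges crossing 0 were, for TNF in collagen, Lep -0.082 to 0.074, Plin1 -0.17 to 0.076 and Retn -0.11 to 0.035; for TNF in fibrin, Adipoq -0.37 to 0.023, Lep -0.11 to 0.14, Cidec -0.037 to 0.26 and Lpl -0.088 to 0.26; without TNF, Lep -0.19 to 0.051 and Cidec -0.36 to 0.025; with TNF, Adipoq -0.20 to 0.20, Lep -0.11 to 0.0028 and Plin1 -0.15 to 0.026; and for the difference, Lep -0.10 to 0.15. With the replicate block over all arrays Retn lost its call (adjusted p = 0.0527, limma); the block within each gel, which gives TNF effects and their difference but no comparison of gels, changed no TNF call of the 9 genes (Pparg in collagen adjusted p = 0.0147, Cfd in fibrin 0.0256). The filter on dim genes left 5 of the 9. The number of arrays limits all of these.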
